A study of Homo sapiens
Mus musculus with 6 samples.

Results

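The host genes of the epidermal barrier and of the desmosome were followed in subcutaneous xenografts of HT29, a long-established line from a human colorectal adenocarcinoma. They were taken by name from the mouse gene table and comprise the late cornified envelope (Lce), small proline-rich (Sprr), desmoglein (Dsg), desmocollin (Dsc), plakophilin (Pkp) and kallikrein-related (Klk) genes, the transglutaminases Tgm1, Tgm3, Tgm5 and Tgm7, and a named set of cornified envelope, filaggrin family and keratinocyte genes. Where a gene had several entries, that with the largest summed value was used, which left 95 genes of 42979 mouse entries. The genes were chosen by name, with earlier results of these data known, so counts of called genes in this set are a description only. Within the name rule, measured values entered only in the choice among entries of the same gene. The tumours grew for 4 weeks in nude mice, hosts that lack a functional thymus and mature T cells and have skin with follicles but defective hair shafts. There were 3 control tumours and 3 laminin tumours, in which mouse laminin alpha 1 chain was overexpressed, a subunit of a basement membrane laminin, and no other treatment was given. All 6 tumours came from the same human line in the same host type. Whether the control cells carried an empty vector, and whether the laminin cells were a pool or a clone, is not given in the sources used here. Lama1, the mouse gene of the overexpressed chain, had 4.75 ppm in the control and 1077 ppm in the laminin group, a 227-fold higher value with q = 0.00238 in the authors' deposited table.

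Epidermis is renewed by basal keratinocytes that stop dividing, migrate and turn into dead, flattened corneocytes. On the way outward transglutaminases cross-link loricrin, involucrin and the small proline-rich and late cornified envelope proteins beneath the plasma membrane, onto a first scaffold of the plakins envoplakin and periplakin, while filaggrin family proteins pack the keratin filaments. Desmosomes hold the cells together through desmogleins and desmocollins, which plakophilins, plakoglobin and desmoplakin tie to keratin, and kallikrein-related proteases cut these contacts when corneocytes are shed. Skin, hair follicles and other stratified epithelia are the main sites of this programme. Some desmosome genes, among them Pkp2, Pkp4 and Dsg2, are also used in cells outside stratified epithelia.

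The authors deposited 1 signal value per gene and group, so most of these genes have no SD between tumours. Values are given here as ppm, parts per 1000000 of the summed mouse signal, with the same factor for both groups. The values follow read numbers without a correction for gene length, so levels are compared between groups for the same gene and not between genes. Most low values are whole-number sums of 3 step sizes in each group, and a step was read as what a single read of a single tumour adds. A group value of up to 50 reads could thereby be separated into reads of 3 tumours with a unique solution for 92.0% of 5303 control values and 91.0% of 4414 laminin values, against 1.75% and 0.0679% of values shifted off the steps. The control tumours are called A, B and C and the laminin tumours D, E and F, each in order of falling step size. Which labelled tumour each letter stands for could not be told. 1 read added 0.155, 0.153 and 0.152 ppm to the control value in A, B and C, and 0.254, 0.169 and 0.103 ppm to the laminin value in D, E and F, so the laminin libraries were less alike in depth than the control libraries. A laminin value listed at 0 was bounded by 3 reads of the shallowest tumour, 0.762 ppm, and a fold against it is written as at least that size. Such bounds cover counting error only.

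Of the 95 genes, 70 had signal in either group and 25 were listed at 0 in both. The latter were mainly glandular kallikreins (13 of the 25) and Sprr2 and Lce3 copies. Flg, the filaggrin gene itself, and the pseudogene Sprr2c-ps stand only on entries with another style of chromosome name, none of whose 19663 entries holds any signal, so their 0 is no measurement. The authors tested 44 of the 70 genes and left 26 without a test. At a q-value under 0.05 in the authors' deposited table, 24 of the 44 were lower in the laminin group, where 2.96% of all 14339 tested mouse genes were, and 0 were higher, where 0.579% were. The laminin value exceeded the control value in none of the 44, so the count higher at an unadjusted p under 0.05 was also 0. Together the 95 genes held 2033 ppm in the control group and 71.5 ppm in the laminin group, or 0.203% and 0.00715% of the mouse signal. The median log2 ratio of laminin over control was -4.70 over the 44 tested genes, with values of 0 at their bound, and -0.03 over all tested mouse genes. In bulk tumours fewer cells of a type and less RNA per cell cannot be told apart.

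**Figure D1:**
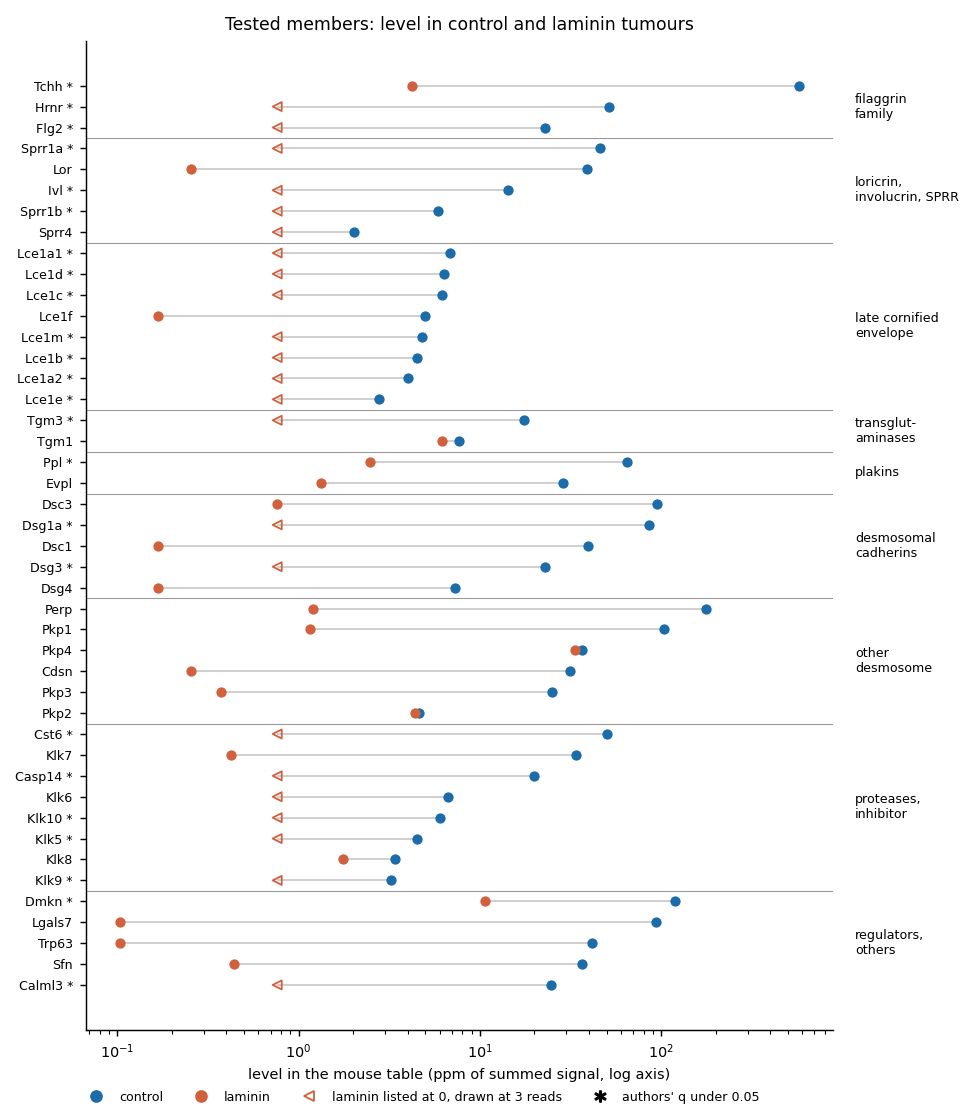
Group levels of the 44 tested genes in ppm of the summed mouse signal on a log axis, grouped by role, with control in blue and laminin in orange. Open triangles stand for laminin values listed at 0, drawn at 0.762 ppm (3 reads of the shallowest laminin tumour), asterisks mark q under 0.05 in the authors' deposited table, and Pkp4, Pkp2, Tgm1 and Klk8 are the genes whose points lie close together.

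Reads could be separated in all 6 tumours for 44 of the 70 detected genes, a set of low genes that overlaps the tested genes only in part and holds 134.9 ppm of the 2033 ppm of the control group. In these 44 genes nearly all control reads came from tumour A, while the other 26 genes, above 50 reads, were not separable. These 44 genes had 823 reads in A, 22 in B and 28 in C, and 20, 27 and 42 in D, E and F. Scaled to each tumour, their summed level was 382 ppm in A, 10.1 ppm in B and 12.7 ppm in C, against 15.2, 13.7 and 13.0 ppm in D, E and F. Tumour A thus stood apart, while B and C lay just below the range of the laminin tumours. Of the 29 genes with 10 to 50 control reads, 22 had every read in A (75.9%), as did 167 of 2584 other mouse genes of that depth (6.46%), and none of the 29 had every read in B or in C. The share of control reads held by A was 94.3% for the 44 genes and 41.0% for other mouse genes separated in the same way.

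Most of the few reads outside A came from Tgm1, Pkp2 and Klk8, which had reads in all 6 tumours. Without these 3 the other 41 genes had 761 reads in A, 6 in B, 4 in C, 4 in D, 3 in E and 1 in F. All control reads of 36 of the 41 lay in A, and 37 of the 41 had no read in any laminin tumour. With all tumours used, the control value exceeded the laminin value in 43 of the 44 genes, and it did in 42 without B and 43 without C. With A left out, 33 of the 44 were at 0 in both groups, 5 were higher in the control and 6 higher in the laminin group, so only 11 could be compared. The summed control level of the 44 was 134.9 ppm with all tumours and 11.4 ppm without A, below the laminin value of 13.95 ppm, and was 197 ppm without B and 196 ppm without C. Leaving out a laminin tumour gave 13.3 to 14.5 ppm.

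**Figure D2:**
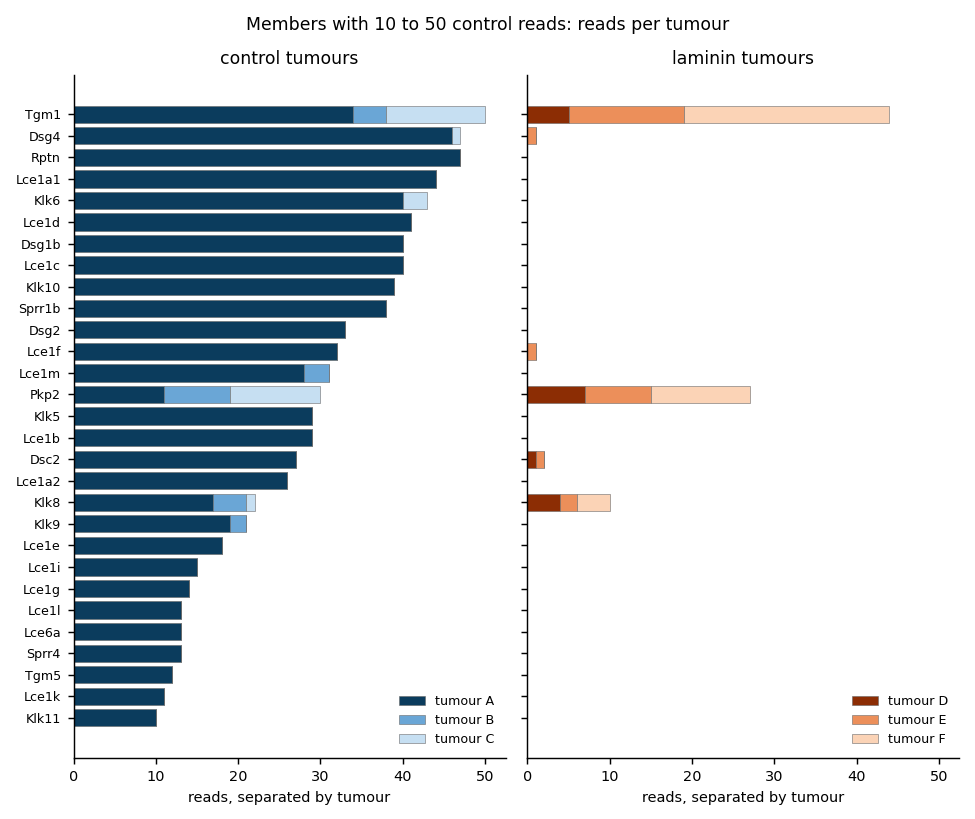
Reads per tumour of the 29 genes with 10 to 50 control reads, as stacked bars for control tumours A, B and C (left) and laminin tumours D, E and F (right). Tumour A fills the whole control bar of 22 genes, and Tgm1, Pkp2 and Klk8 are the genes with reads in every tumour.

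For genes with more reads than could be separated, a value can still be tested for being a whole multiple of a step. Among the 18 such genes with 51 to 350 control reads, 4 were whole multiples of the step of A and none of the steps of B or C. These were Ivl with 92 reads, Dsg3 with 148, Lor with 252 and Hrnr with 332. Among 6571 other mouse genes in this range 49 were multiples of A, 6 of B and 8 of C. The other 14 genes were no multiples of A. Such a value holds at least 1 read of B or C only if it is a sum of whole reads. Of the 5303 control values examined for separation, 424 had no whole-number solution. Whether the 14 genes had reads in B or C, and how many, was therefore not separable. Another 8 genes lay above 350 reads and could not be examined.

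Only 3 tumours stood against 3, so an exact permutation test cannot give a two-sided p below 0.1. On the separated reads of the 18 tested genes that had them, the exact two-sided permutation p over tumours ranged from 0.4 to 1, and it was 1 for 12 of them. The 11 of these that the authors' group test called lower had exact permutation p of 0.4 to 1, with 9 at 1. A gene with all its reads in A and none elsewhere gives 1 by construction.

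Among the proteins that are cross-linked into the envelope, loricrin, involucrin and the small proline-rich proteins were detected through 11 of 17 genes. Sprr1a (chr3:92483954-92485881, mm10 as are all coordinates here) had 45.8 ppm in the control group and was listed at 0 in the laminin group, at least 60.0-fold lower. Ivl (chr3:92570902-92573715), encoding involucrin, went from 14.2 ppm to 0, at least 18.7-fold lower, its 92 control reads a multiple of A. Sprr1b had 38, 0 and 0 reads in A, B and C and none in D, E or F, at least 7.71-fold lower by group, so that A alone was high and the other 5 tumours lay at 0. All 3 were called lower, and q was 0.00238 for each in the authors' deposited table.

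Lor (chr3:92080271-92083142), encoding loricrin, the main protein of the murine cornified envelope, had 39.0 ppm in the control and 0.254 ppm in the laminin group. The laminin value was 1 read, in D. The ratio was 153-fold with a 95% counting interval of 27.5 to 6061. With q = 0.112 in the authors' deposited table, Lor was not called. Sprr4 had 13 reads in A and none in the other 5 tumours, and its q of 0.0834 in the authors' deposited table also missed the threshold. The Sprr2 copies were near the limit of detection. Sprr2d had 9 reads, Sprr2g and Sprr2h had 4 each, Sprr2i had 3 and Sprr2b and Sprr2e had 1 each, every one in A, and none was tested. The Sprr2 and Lce1 genes are near-identical copies, and how shared reads were assigned among copies is not given in the sources used here, so the split within each family is uncertain while its sum is less so.

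The late cornified envelope proteins, expressed in the outermost living layers of the epidermis, gave 336 control reads over 16 detected genes. Of these reads 333 were in A, 3 in B and 0 in C, and the laminin group had 1 read, in E. Of the 8 tested genes 7 were called lower. Lce1a1 had 44 reads in A, or 20.4 ppm of that tumour, and 0 in B to F. Lce1d had 41, Lce1c 40, Lce1b 29, Lce1a2 26 and Lce1e 18 reads, again with every read in A. Lce1m was the exception in this family, with 28 reads in A and 3 in B. All of these were listed at 0 in laminin tumours and had q = 0.00238 in the authors' deposited table, with group folds of at least 3.65 for Lce1e to at least 8.93 for Lce1a1. Without A no read of these genes was left in the control group apart from the 3 of Lce1m.

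Lce1f differed from its neighbours in the call and hardly in the reads. It had 32 reads in A, none in B or C, and 1 in E, a 29.3-fold lower group value (95% counting interval 5.27 to 1159) with q = 0.798 in the authors' deposited table. Lce1i with 15 reads, Lce1g with 14, Lce1l and Lce6a with 13, Lce1k with 11, Lce1h with 5, Lce3c with 3 and Lce3f with 1 were not tested. All of their reads were in A and none in a laminin tumour.

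Of the filaggrin family, large repeat proteins that bind keratin filaments or line the envelope, every tested gene was called lower with q = 0.00238 in the authors' deposited table. Tchh (chr3:93442330-93449077), encoding trichohyalin of the inner root sheath of the hair follicle, had 575 ppm in the control and 4.24 ppm in the laminin group, 136-fold lower. The laminin value came from 12 reads in D, 4 in E and 5 in F. Hrnr (hornerin, chr3:93319749-93333572) went from 51.4 ppm to 0, at least 67.4-fold lower, its 332 control reads a multiple of A. Flg2 (filaggrin-2, chr3:93197273-93221376) went from 22.9 ppm to 0, at least 30.0-fold lower. Rptn (repetin, chr3:93393699-93399442) had 47 reads, all in A, and none in laminin tumours, but it carried no test.

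The cross-linking enzymes divided. Tgm3, the transglutaminase of hair follicle and upper epidermis, had 17.6 ppm in the control and 0 in the laminin group, at least 23.1-fold lower with q = 0.00238 in the authors' deposited table. Tgm5 had 12 reads and Tgm7 had 2, every one in A and none in a laminin tumour, and neither was tested. Tgm1, the membrane-anchored transglutaminase of keratinocytes, had 34, 4 and 12 reads in A, B and C and 5, 14 and 25 in D, E and F. As levels of each tumour these were 15.8, 1.83 and 5.46 ppm against 3.81, 7.08 and 7.71 ppm, so the groups overlapped. Its group values of 7.69 and 6.20 ppm had q = 0.994 in the authors' deposited table, an exact permutation test over the 6 tumours gave a two-sided p of 0.9, and the control value without A was 3.65 ppm.

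The plakins that form the first scaffold of the envelope stood on either side of the threshold. Ppl, encoding periplakin, had 64.6 ppm in the control and 2.48 ppm in the laminin group, 26.1-fold lower with q = 0.0276 in the authors' deposited table. Evpl, encoding its partner envoplakin, had 28.7 and 1.33 ppm, 21.6-fold lower with q = 0.0911 in the authors' deposited table, and was not called. In the laminin tumours Ppl had 0, 8 and 11 reads and Evpl 0, 3 and 8 reads in D, E and F, so D lacked reads of both although each had reads in E and F.

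All 9 genes of the desmosomal cadherin cluster on chromosome 18 were detected, with 267 ppm in the control and 1.52 ppm in the laminin group. Dsg1a, a desmoglein of the upper epidermis, went from 85.8 ppm to 0, at least 113-fold lower, and Dsg3, the desmoglein of the basal layers, from 22.9 ppm to 0, at least 30.0-fold lower. Both had q = 0.00238 in the authors' deposited table, and the 148 control reads of Dsg3 were a multiple of A. The other 3 tested cadherins were not called, at ratios of 43.1 to 235. Dsc3, the desmocollin of the basal layers, had 95.4 and 0.762 ppm, 125-fold lower (95% counting interval 42.8 to 607) with q = 0.426 in the authors' deposited table, its 3 laminin reads all in D. Dsc1, the desmocollin of the upper layers, had 39.6 and 0.169 ppm, its only laminin read in E. It was 235-fold lower (95% counting interval 42.1 to 9268) with q = 0.798 in the authors' deposited table. Dsg4, a desmoglein of the hair shaft, had 46 reads in A, 1 in C and 1 in E, and the same q.

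Dsg2 and Dsc2, the desmosomal cadherins that simple epithelia use, followed the others among the separated reads. Dsg2 had 33 reads in A and 0 in B to F. Dsc2 had 27 reads in A, none in B or C, 1 in D and 1 in E. Dsg1b had 40 and Dsg1c 3 reads, all in A. None of these 4 was tested. Dsg1a, Dsg1b and Dsg1c are close copies, and reads that fit several of them could not be assigned with certainty.

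None of the 6 other desmosome and corneodesmosome genes was called, although 4 of them were at least 16-fold lower in the laminin group. Perp, a desmosomal membrane protein and target of p63, had 178 and 1.20 ppm, 148-fold lower with q = 0.114 in the authors' deposited table. Its laminin reads were 3, 2 and 1 in D, E and F. Pkp1, the plakophilin of the upper epidermis, had 104 and 1.15 ppm, 90.2-fold lower with q = 0.154 in the authors' deposited table, and 2, 2 and 3 laminin reads. Cdsn, encoding corneodesmosin of the corneocyte junction, had 31.5 and 0.254 ppm, its only laminin read in D. It was 124-fold lower (95% counting interval 22.3 to 4905) with q = 0.112 in the authors' deposited table. Pkp3 had 24.9 and 0.374 ppm, 66.5-fold lower (95% counting interval 22.8 to 322) with q = 0.875 in the authors' deposited table.

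Pkp2 and Pkp4 did not share this pattern. Pkp2, the plakophilin also found in heart and simple epithelia, had 11, 8 and 11 reads in A, B and C and 7, 8 and 12 in D, E and F. Its levels were 5.10, 3.66 and 5.01 ppm against 5.33, 4.05 and 3.70 ppm, and the groups overlapped. The group values of 4.59 and 4.36 ppm had q = 0.996 in the authors' deposited table, and the control value without A was 4.34 ppm. Pkp4, a widely expressed plakophilin, had 36.6 and 33.5 ppm with the same q.

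Among the proteases and the protease inhibitor, 5 of 8 tested genes were called lower. Cst6, encoding cystatin E/M, an inhibitor of cysteine proteases in the cornified layer, went from 50.6 ppm to 0, at least 66.4-fold lower. Casp14, the caspase of cornifying keratinocytes, went from 19.8 ppm to 0, at least 26.0-fold lower. Klk10 had 39 and Klk5, a desquamation protease, had 29 reads, all in A and none in a laminin tumour. These 4 had q = 0.00238 in the authors' deposited table. Klk9 had 19, 2 and 0 control reads and none in laminin tumours, with q = 0.00441 there. Klk6 had more reads, 40, 0 and 3, and none in laminin tumours, yet its q in the authors' deposited table was 0.315. Klk7, a chymotrypsin-like protease that cuts corneodesmosin, had 34.0 and 0.423 ppm, 80.5-fold lower, with q = 0.657 in the authors' deposited table.

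Klk8 was the protease with reads in every tumour. It had 17, 4 and 1 reads in A, B and C and 4, 2 and 4 in D, E and F, or 7.89, 1.83 and 0.455 ppm against 3.05, 1.01 and 1.23 ppm. The groups overlapped, q was 0.917 in the authors' deposited table, and the control value without A, 1.14 ppm, lay below the laminin value of 1.76 ppm. Klk11 had 10 reads, Klk13 had 4 and Klk14 had 2, all in A and untested. The glandular kallikreins, products mainly of salivary gland and kidney, had few reads or none. Klk1 had 2 reads in A, 3 in D and 1 in F, Klk1b27 had 1 read in B, and the other 13 were listed at 0 in both groups.

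The 5 regulators and other keratinocyte proteins were all at least 11.2-fold lower by group value, and 2 were called. Dmkn, encoding the secreted protein dermokine, had 120 and 10.7 ppm, 11.2-fold lower, and Calml3, a calmodulin-like protein of epithelia, went from 24.6 ppm to 0, at least 32.2-fold lower. Both had q = 0.00238 in the authors' deposited table. Trp63, encoding p63, the transcription factor required for stratified epithelia, had 41.7 ppm in the control and 0.103 ppm in the laminin group. Its laminin value was 1 read, in F, the ratio was 406-fold (95% counting interval 72.8 to 16024), and q was 0.879 in the authors' deposited table. Lgals7, encoding galectin-7 of stratified epithelia, had 94.0 and 0.103 ppm, once more 1 read in F. Its value was 914-fold lower (95% counting interval 164 to 36115) with q = 0.693 in the authors' deposited table. Sfn, encoding the 14-3-3 sigma protein of keratinocytes, had 36.5 and 0.440 ppm, with 2 laminin reads in E and 1 in F. It was 82.9-fold lower (95% counting interval 28.4 to 402), and q was 0.702 in the authors' deposited table.

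The calls were set beside the laminin reads. Of the 23 tested genes listed at 0 in the laminin group 21 were called, the exceptions being Sprr4 and Klk6. Over all tested mouse genes listed at 0 there, 143 of 285 were called (50.2%). Of the 11 tested genes with 1 to 3 laminin reads none was called, at control levels of 4.95 to 95.4 ppm and p from 0.0055 to 0.255 in the authors' deposited table. Of the 10 with more reads 3 were called, Tchh, Dmkn and Ppl. Among the 16 genes that were at least 16-fold lower without being at 0, 2 were called, and over all tested mouse genes of that kind 33 of 204 were (16.2%). Sprr1b, at 5.88 ppm in the control and 0 in the laminin group, was called while Lgals7, at 94.0 ppm against 1 read, was not.

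The p-values of such genes repeated. In the authors' deposited table all 42 tested mouse genes whose only laminin read lay in D were uncalled, and 18 of them, Lor and Cdsn included, shared p = 0.0055 over control levels of 3.36 to 122 ppm. Of 53 genes with their only read in E, 15 shared p = 0.16025 in the authors' deposited table, Dsc1, Dsg4 and Lce1f among them. Lgals7 was among 11 of 32 genes with their only read in F that shared p = 0.10765 in the authors' deposited table, and none of the 53 or the 32 was called. The p thus took the same value over wide ranges of the control level, and the uncalled genes of this kind are not shown to differ in response from the called ones. The difference between called and uncalled genes was not tested.

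**Figure D3:**
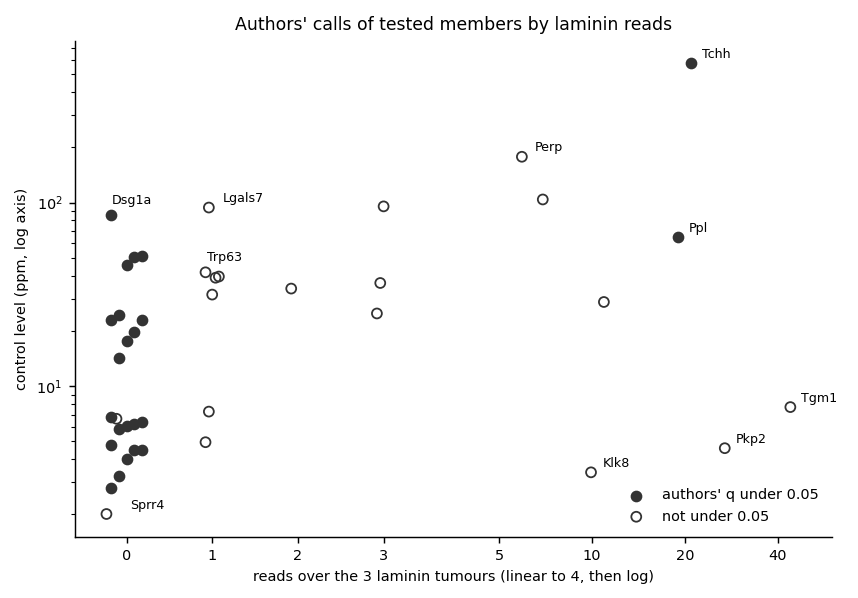
Control level in ppm (log axis) against the reads of the 3 laminin tumours (linear to 4, then log) for the 42 tested genes with separated laminin reads, with small sideways shifts so that points do not hide each other. Filled points have q under 0.05 in the authors' deposited table: 21 of the 23 genes at 0 reads are filled and none of the 11 genes at 1 to 3 reads.

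The genes were also summed by genomic cluster. The epidermal differentiation complex, the cluster of envelope and filaggrin family genes at chr3:92080271-93449077, held 38 of the 95 genes, 31 of them detected. Their sum was 818 ppm in the control and 4.66 ppm in the laminin group, and 24 of the 25 separated genes had every control read in A. Another 11 genes lie between the ends of the cluster, of which 5 were detected. Among those, Kprp (keratinocyte proline-rich protein) went from 19.5 ppm, a multiple of A, to 0, Crct1 from 15.3 ppm to 0, the uncharacterised 2310050C09Rik from 10.1 ppm to 0 and Prr9 from 86.2 to 1.89 ppm, and these 4 were called lower. Crnn (cornulin) had 18.1 and 0.254 ppm, and q was 0.112 in the authors' deposited table. The kallikrein cluster at chr7:43690418-44229617 held 27 of the genes, 11 of them detected, with 60.8 and 3.05 ppm, and 6 of its 10 separated genes had every control read in A. In the cadherin cluster 4 of 5 did.

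Neighbouring parts of the epidermal programme were examined as lists. Of 29 tested genes of keratinocyte structure 10 were called lower and 0 higher, with a median log2 ratio of -4.68. Krt10, a suprabasal keratin, had 447 and 2.94 ppm, its partner Krt1 went from 425 ppm to 0, and Dsp, the desmoplakin that anchors keratin to desmosomes, had 345 and 3.65 ppm, each with q = 0.00238 in the authors' deposited table. Sbsn (suprabasin) went from 94.1 to 30.3 ppm and Krt80 from 22.1 to 5.53 ppm, both called. Jup, the plakoglobin that desmosomes share with adherens junctions, had 179 and 108 ppm with q = 0.113 in the authors' deposited table. Among 13 tested genes of the lipid barrier 5 were lower and 0 higher (median log2 ratio -3.61). Dgat2, a triglyceride synthase, had 244 and 9.90 ppm, Abhd5 112 and 55.8 ppm, the fatty acid transporter gene Slc27a4 84.7 and 41.3 ppm, and the lipoxygenase gene Alox12e and Cyp4f39, 12.5 and 9.28 ppm in the control group, were listed at 0 in the laminin group.

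Other lists lay further from the envelope. Of 15 tested proteases and inhibitors outside the set 2 were lower and 0 higher (median log2 ratio -1.72), the cysteine protease inhibitor gene Stfa3 (28.8 ppm to 0) and Spint2 (16.8 to 4.79 ppm), a serine protease inhibitor gene. Of 19 epidermal transcription factors 1 was lower and 0 higher (median -1.33): Ehf, an epithelial ETS factor, with 48, 0 and 2 reads in A, B and C and none in laminin tumours. Of 19 tight and adherens junction genes 4 were lower and 0 higher (median -0.77), among them Cldn1 (43.2 to 5.37 ppm), the connexin gene Gjb2 (42.4 to 2.85 ppm) and Cdh1 (34.0 to 3.44 ppm). These counts stand beside the 2.96% of all tested mouse genes that were lower. No test compared these lists with each other or with the barrier genes.

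Markers of tissues within and beneath skin were summed in the same table. Summed over 7 keratinocyte markers the level was 1480 ppm in the control and 7.04 ppm in the laminin group, with Krt1 alone at 0 in the latter. Of these 7 markers 2 were called lower. The basal keratins Krt5 (270 and 1.02 ppm, q = 0.258) and Krt14 (233 and 1.78 ppm, q = 0.125) were not called in the authors' deposited table, and their 4 and 7 laminin reads were all in D. The 13 hair follicle markers, Tchh among them, summed to 1297 and 7.90 ppm (3 of 10 tested called lower; Foxn1, Krt31, Krt35, Krt85 and Lhx2 at 0 in the laminin group). The 12 sebocyte markers summed to 13545 and 516 ppm (4 of 11 lower). Scd1 made up most of the control sum with 12931 ppm and had 207 ppm in the laminin group (q = 0.794 in the authors' deposited table), where Soat1 had 235 ppm. Skeletal muscle markers summed to 3641 and 513 ppm, with 6 of 6 called lower, and adipocyte markers to 3339 and 103 ppm, with 4 of 6 lower.

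Dermal fibroblast markers summed to 36664 and 34544 ppm with 0 of 7 called, and endothelial markers to 1052 and 1121 ppm with 0 of 6 called. None of these fibroblast or endothelial markers is listed at 0 in either group. Langerhans cell markers summed to 933 and 939 ppm, a sum mostly of Cd74 (912 and 938 ppm), which other immune cells also express, while Epcam had 19.2 and 0.506 ppm. Melanocyte markers summed to 61.7 and 44.0 ppm, mostly of Mitf (44.3 and 42.5 ppm), while Pmel had 5.41 and 0.716 ppm and Dct 3.70 and 0.169 ppm. The median log2 ratios of the tested Langerhans and melanocyte markers were -2.60 and -2.86, with none called. The part that the amount of skin, muscle or fat in a sample had in the results was not tested.

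**Figure D4:**
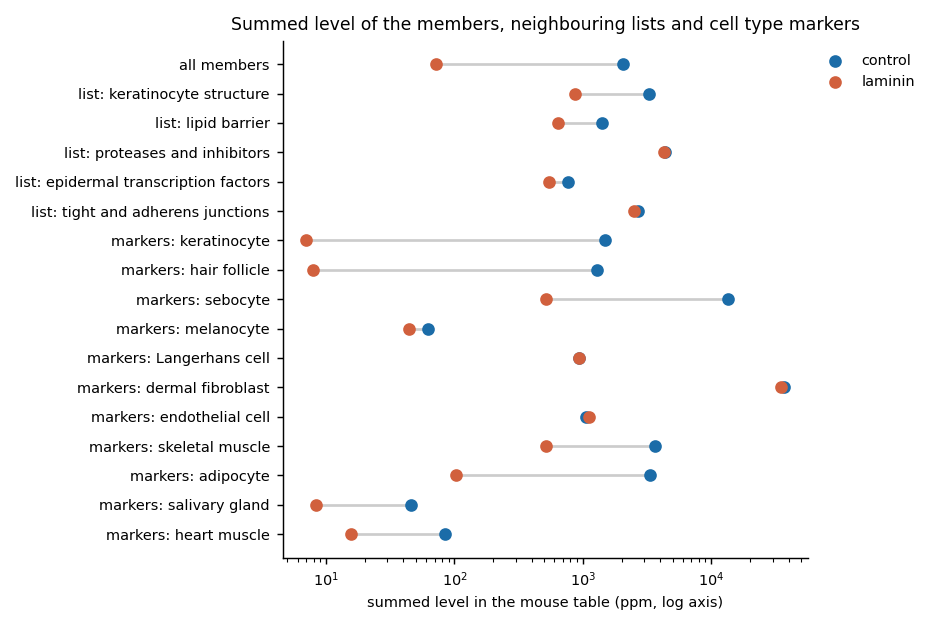
Summed level in ppm (log axis) of all 95 genes, of the 5 neighbouring lists and of the cell type marker lists with at least 10 ppm in the control group, for control (blue) and laminin (orange). The 95 genes go from 2033 to 71.5 ppm and keratinocyte markers from 1480 to 7.04 ppm, while dermal fibroblast markers are at 36664 and 34544 ppm.

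The human tumour cells express some of the same genes, which allows the same names to be read in both species. Of the 95 genes 63 had a human gene of the same symbol (TP63 for Trp63), 46 of these had signal and 39 were tested. With p-values of the authors' deposited table adjusted by the Benjamini-Hochberg method, 4 were lower in the laminin group, where 2.45% of 25838 tested human genes were, and 4 were higher, where 5.63% were. The median log2 ratio was -0.01. DMKN rose from 9.32 to 46.4 ppm of the human signal, 4.98-fold, so dermokine was called higher in the human cells and lower in the host. KLK6 rose from 126 to 179 ppm, DSG4 from 0.673 to 1.54 ppm and IVL from 0 to 0.211 ppm. DSG4 and IVL were thus called at low levels. IVL was called from a control value of 0, while HRNR (0 and 0.112 ppm) and FLG (0 and 0.113 ppm) were not called. KLK11 fell from 141 to 104 ppm, SFN from 101 to 77.7 ppm, KLK1 from 7.43 to 4.73 ppm and DSG3 from 4.35 to 2.30 ppm. The contrast between host and human cells was not tested, and each species has its own scale.

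Desmosome genes of simple epithelia were well expressed in the HT29 cells and none of those named next was called. DSG2 had 363 and 398 ppm, PERP 268 and 277 ppm, PKP4 180 and 199 ppm, PKP2 171 and 150 ppm, DSC2 149 and 175 ppm and PKP3 145 and 159 ppm. The 12 human genes at 40 ppm or more in the control group all lay between 0.723-fold and 1.43-fold of it. The host genes Perp and Pkp3 were at least 66.5-fold lower by group value in the same comparison, neither of them called, and in host Dsg2 all 33 control reads came from A. The plakin genes PPL (95.2 and 82.3 ppm) and EVPL (57.1 and 41.3 ppm) were also expressed in the human cells and not called, whereas LOR, CASP14 and TGM3 were listed at 0 in both groups.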

How the data were processed

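Poly(A) RNA of 6 xenografts was sequenced from TruSeq libraries per the labels' protocols, with no step that keeps the strand, so overlapping and antisense genes were not separable. TopHat2, Cufflinks and, as builds, mm10 and hg38 appear in the submitters' processing notes. Per the file headers the authors deposited, per gene, 1 signal value for each group with no stated scale, a log2 ratio, a test score and a p-value, with a q-value in the mouse table. Species separation and tumour depth were not given in the sources used here. Calls rest on the authors' own group tests, since the tables hold no counts per tumour and a count model could not be run. Exact permutation tests over tumours were added for genes whose reads could be separated. The summed mouse signal, in units of 1000000, was 969 for control and 951 for laminin tumours.

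From these, levels in ppm, folds, read steps and exact permutation tests were computed with Python 3.11.15, pandas 2.3.3, numpy 2.4.6 and SciPy 1.17.1. Separation used values of 6 significant digits and up to 50 reads, and was tested on simulated data. Human p-values were adjusted over 25838 tests. Genes named are those called and those at 5 ppm or more, and, per neighbouring list, up to 5 called genes at the highest levels. Other members, Jup and the cluster neighbours were named after their values were seen. The members and lists were chosen with earlier results of these data known. No sequence table of mouse was used here, so no sequences are shown.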

Additional observations from a re-analysis of the deposited data

How the results depend on the processing

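The count of 24 genes called lower was 23 to 26 at q-value thresholds of 0.01 and 0.10, with p-values adjusted anew over all tested genes, with every entry of a gene and at a mean level of 1 ppm or more, and it was 13 when only genes at 5 ppm or more were used, which tests fewer genes. The count called higher was 0 under each of these. The median log2 ratio of -4.70 became -4.07 with 1 ppm and -2.36 with 5 ppm added to both levels, -6.33 without genes listed at 0 and -6.06 at 5 ppm or more; both other scalings and the 1 ppm minimum changed it by 0.03 or less. Leaving out 1 control tumour in turn moved the summed control level of the separated genes (134.9 ppm) to between 11.4 and 197 ppm, the lowest without A. The number with a higher control than laminin level, 43 of 44, was a comparison chosen after seeing the data. It moved to between 5 and 43, the lowest again without A, where 33 genes were at 0 in both groups. Without the glandular kallikreins it was 42 of 42. No paired analysis was possible because the labels give no replicate numbers, and the tumours A to F cannot be matched to labelled samples. The authors' test could not be repeated without a tumour, and edgeR and DESeq2 were not run for want of counts. Genes above 50 reads have no values per tumour. At 1 to 3 laminin reads folds are known at best within their counting intervals, which leave out differences between tumours.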

Other observations

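The separated control reads of hair shaft and liver genes lay in tumour A, in 2 lists drawn up after the data were examined. These lists are therefore a description only, and their genes above 50 reads, Alb and Krtap15 among them, were not separable. Of 13 hair keratin-associated protein genes, which encode the matrix around keratin in the hair shaft, 7 of 9 tested were called lower in the authors' deposited table. The 12 of them with separated reads had 281 control reads in A and 0 in B and C, and the list summed to 84.6 ppm in the control and 0.169 ppm in the laminin group. Of 18 liver genes 3 of 9 tested were called lower, and 12 were listed at 0 in the laminin group. The 14 liver genes with separated reads had 408 control reads in A and 0 in B and C. Alb, encoding serum albumin, went from 160 ppm to 0, while Trf had 519 and 387 ppm and was not called. Other marker lists varied in their separated control reads in A, B and C. Hair follicle markers had 61, 2 and 4 and sebocyte markers 111, 20 and 2. Langerhans cell markers had 6, 0 and 0, all of Cd207. That gene also had 3 reads in D, and its group values were 0.928 ppm in the control and 0.762 ppm in the laminin group. Melanocyte markers had 46, 24 and 8, salivary gland markers 8, 13 and 17 and mammary gland markers 3, 1 and 17. Of the neighbouring lists, keratinocyte structure had 99, 1 and 2 and lipid barrier 132, 8 and 0. Epidermal transcription factors had 262, 5 and 16, tight and adherens junctions 145, 6 and 18 and proteases and inhibitors 103, 6 and 10.

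Over the whole mouse table, 2613 genes had 10 to 50 separated control reads. All reads lay in A for 189 of them, in B for 13 and in C for 2, and 22 of the 189 were barrier or desmosome genes.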
